A study of Mus musculus with 9 samples.

Results

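The 7 genes described here encode parts of the phagocyte NADPH oxidase, the enzyme complex with which phagocytes make superoxide, and the superoxide dismutases that take superoxide away. They were taken by gene symbol, 7 of the 26770 gene rows of the deposited count table, by a rule that holds no measured value but was written with earlier results of these data known. There are 5 oxidase genes (Cybb, Cyba, Ncf1, Ncf4 and Rac2) and 2 dismutase genes (Sod1 and Sod2). RNA sequencing was done on spleen-derived monocytes of wild-type (WT) mice, in 3 groups of 3 libraries each. The first group was primed with a low dose of lipopolysaccharide (LPS, a bacterial outer membrane component sensed by Toll-like receptor 4) and then given octanal at 20 µM, an aldehyde that binds the olfactory receptor Olfr2. The second group had LPS alone at 40 ng/ml over 5 hours, and the third was untreated apart from the solvent DMSO at 1 in 1000. The octanal time is 18 hours in the series text, whereas the labels of single samples read 18, 19 and 20 hours, and the DMSO dilutions 1000, 1001 and 1002 in the same way. The octanal samples' own labels give neither the dose nor the length of their priming, and no label says that cells of the LPS group were cultured as long as those of the octanal group, so octanal and time in culture cannot be told apart. DMSO is named for untreated samples only. Nor do the labels say whether replicates came from separate mice or cultures, and each p-value reflects no more than the spread among these libraries.

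The phagocyte oxidase has a membrane core, flavocytochrome b558, made of the catalytic subunit gp91phox (Cybb) and its partner p22phox (Cyba). At rest the cytosolic subunits such as p47phox (Ncf1) and p40phox (Ncf4) are kept away from that core; on stimulation they move to it together with the GTPase Rac, and electrons pass from NADPH across the membrane to oxygen. Superoxide dismutases turn superoxide into hydrogen peroxide, with Sod1 in the cytosol using copper and zinc and Sod2 in the mitochondrial matrix using manganese. Sod2 is a known target of NF-kappaB, and loss of oxidase subunits causes chronic granulomatous disease.

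All 7 genes are protein-coding and lie, on GRCm38, on 6 chromosomes. Cybb is on chromosome X from 9435252 to 9487771 on the minus strand, Cyba on chromosome 8 from 122424776 to 122432930 on the minus strand, and Ncf1 on chromosome 5 from 134220053 to 134229625 on the minus strand. Ncf4 (78244801 to 78262580, plus strand) and Rac2 (78559167 to 78572783, minus strand) are both on chromosome 15. Sod1 is on chromosome 16 from 90220754 to 90226329 and Sod2 on chromosome 17 from 13006846 to 13040063, both on the plus strand. The use of strand in the authors' counting is not given in the sources used here. Of the exonic bases of Ncf1, 11.1% overlap exons of Gtf2ird2 on the opposite strand, a gene counted 1224 to 1756 times per library, so reads of that stretch may be shared. Of the 50-base stretches of the Sod1 transcript Sod1-201, 23.1% also occur in other genes, and over all annotated Sod1 transcripts together 3.42% do, all in the processed pseudogene Gm8566. For Sod2 these shares are 1.43% of Sod2-201 and 21% over all its transcripts. Most of the latter occur in the lincRNA AC166110.4, which holds 17.6% of all the Sod2 stretches. Neither Gm8566 nor AC166110.4 was analysed here, and the counts of both dismutase genes may hold reads that fit these copies as well.

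Promoter sequences were matched by symbol in the RefSeq table of GRCm38.p6, which holds entries for 5 of the 7 genes (Cybb, Cyba, Ncf1, Sod1 and Sod2). The 250 bases before the RefSeq start are shown for Cyba and Ncf1, a membrane and a cytosolic subunit that fell with LPS, and for Sod2, which rose. They lie at chr8:122432941-122433190 (minus strand), chr5:134229626-134229875 (minus strand) and chr17:13007589-13007838 (plus strand), and the Sod2 window is inside the span that the gene annotation gives to Sod2. Capitals mark a match to a searched motif.

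Cyba: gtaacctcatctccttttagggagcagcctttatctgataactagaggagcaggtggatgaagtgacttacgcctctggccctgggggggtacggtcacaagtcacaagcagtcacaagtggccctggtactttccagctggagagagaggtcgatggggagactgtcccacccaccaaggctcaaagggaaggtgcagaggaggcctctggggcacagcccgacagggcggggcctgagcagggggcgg

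Ncf1: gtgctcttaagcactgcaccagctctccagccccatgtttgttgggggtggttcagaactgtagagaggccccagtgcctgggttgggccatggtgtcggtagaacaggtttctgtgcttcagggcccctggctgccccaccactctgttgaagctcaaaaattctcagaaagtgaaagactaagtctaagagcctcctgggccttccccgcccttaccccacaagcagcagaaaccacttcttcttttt

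Sod2: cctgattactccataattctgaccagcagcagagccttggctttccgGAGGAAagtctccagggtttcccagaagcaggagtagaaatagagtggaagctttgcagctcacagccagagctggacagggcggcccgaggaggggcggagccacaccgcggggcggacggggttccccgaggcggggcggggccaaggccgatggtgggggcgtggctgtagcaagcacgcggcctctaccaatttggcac

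The motifs searched on both strands were GAGGAA, the core bound by PU.1 and other ETS factors, and a form of the kappaB motif that reads GGG, 3 bases of any kind, then TTCC (matches to both can share the letters GGAA). Of the 5 windows 1 held a match, GAGGAA on the plus strand of Sod2 at bases -203 to -198 from the start. Of all 32851 promoters in RefSeq's list, 23.3% hold GAGGAA and 4.65% the kappaB form in a window of the same length, so matches of the first kind are common, and the lack of a match says only that these letters are not in this window.

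Total counts were 29594291 to 38388421 per library, and each member had between 2287 and 41923 counts, so that counting error alone is at most 2.09% and small beside the spread between libraries. Levels are given as CPM (counts relative to TMM-scaled library totals) and changes as log2 fold changes of edgeR's quasi-likelihood fit over 15447 genes; a gene is called when its Benjamini-Hochberg adjusted p is under 0.05. In bulk RNA, fewer cells of a type and less RNA per cell cannot be told apart. The labelled monocytes expressed monocyte and macrophage genes in each group (Csf1r averaged 379 CPM with LPS and octanal, 231 with LPS and 402 untreated; Cd14 averaged 1247, 712 and 533 in that order), but Ly6c2 and Ccr2, which define classical monocytes, were low in most libraries. Ly6c2 had 1.01, 0.994 and 0.625 CPM with LPS and octanal, 7.90, 0.564 and 0.387 CPM with LPS, and 168, 2.82 and 249 CPM untreated. Ccr2 had 2.85, 0.994 and 0.658 CPM with LPS and octanal, 1.72, 1.82 and 0.885 CPM with LPS, and 30.1, 4.65 and 8.93 CPM untreated. Both genes had their highest value in an untreated library, and untreated replicate 2 was the lowest of its group. Neutrophil genes were abundant as well, with 14 markers summing to 6109 to 13730 CPM with LPS and octanal, 1895 to 2347 with LPS and 14000 to 27240 in untreated libraries. Transcripts of the mitochondrial genome took 2.31 to 3.10% of counts with LPS and octanal, 4.12 to 7.66% with LPS and 2.20 to 3.99% in untreated libraries, higher in each LPS library than in the other libraries.

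The membrane core was expressed in all libraries. Cybb had 418, 583 and 494 CPM in the libraries with LPS and octanal, 201, 299 and 389 CPM in the LPS libraries, and 1103, 317 and 513 CPM in the untreated libraries. The untreated libraries thus spanned 3.48-fold and enclosed those with octanal, and the LPS libraries reached above the lowest untreated library. The replicate SD of log2 CPM of Cybb in untreated cells was 0.908, against a median of 0.223 over the 1964 genes of at least the lowest member's mean level. Cyba, whose product stabilises that of Cybb in the membrane, had 423, 614 and 539 CPM with LPS and octanal, 207, 311 and 329 CPM with LPS, and 648, 423 and 555 CPM untreated. Each LPS library lay below every library of the other groups, and the octanal and untreated libraries overlapped.

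The cytosolic subunits and the GTPase were likewise lowest with LPS. Ncf1, the organiser that links the cytosolic subunits to p22phox, had 655, 715 and 907 CPM with LPS and octanal, 311, 386 and 304 CPM with LPS, and 885, 612 and 1166 CPM untreated. Ncf4, whose product binds phosphoinositides on phagosomes, had 332, 496 and 491 CPM with LPS and octanal, 154, 221 and 206.5 CPM with LPS, and 418, 294 and 453 CPM untreated. For both genes the LPS libraries were the lowest and were separated from all others, while the octanal and untreated libraries overlapped. Rac2, the haematopoietic Rac GTPase that activates the complex, had 667, 746 and 897 CPM with LPS and octanal, 446, 546 and 484 CPM with LPS, and 653, 614 and 919 CPM untreated, again with the LPS libraries lowest and apart.

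The dismutases were ordered otherwise. Sod1 had 133, 145 and 118 CPM with LPS and octanal, 140, 137 and 158 CPM with LPS, and 87.5, 96.2 and 81.0 CPM untreated. Both stimulated groups lay above the untreated one and overlapped each other. Sod2 had 665, 1126 and 917 CPM with LPS and octanal, 373, 456 and 527 CPM with LPS, and 227, 129.9 and 149 CPM untreated. Its 3 groups did not overlap, with the libraries given octanal highest and the untreated libraries lowest.

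**Figure D1:**
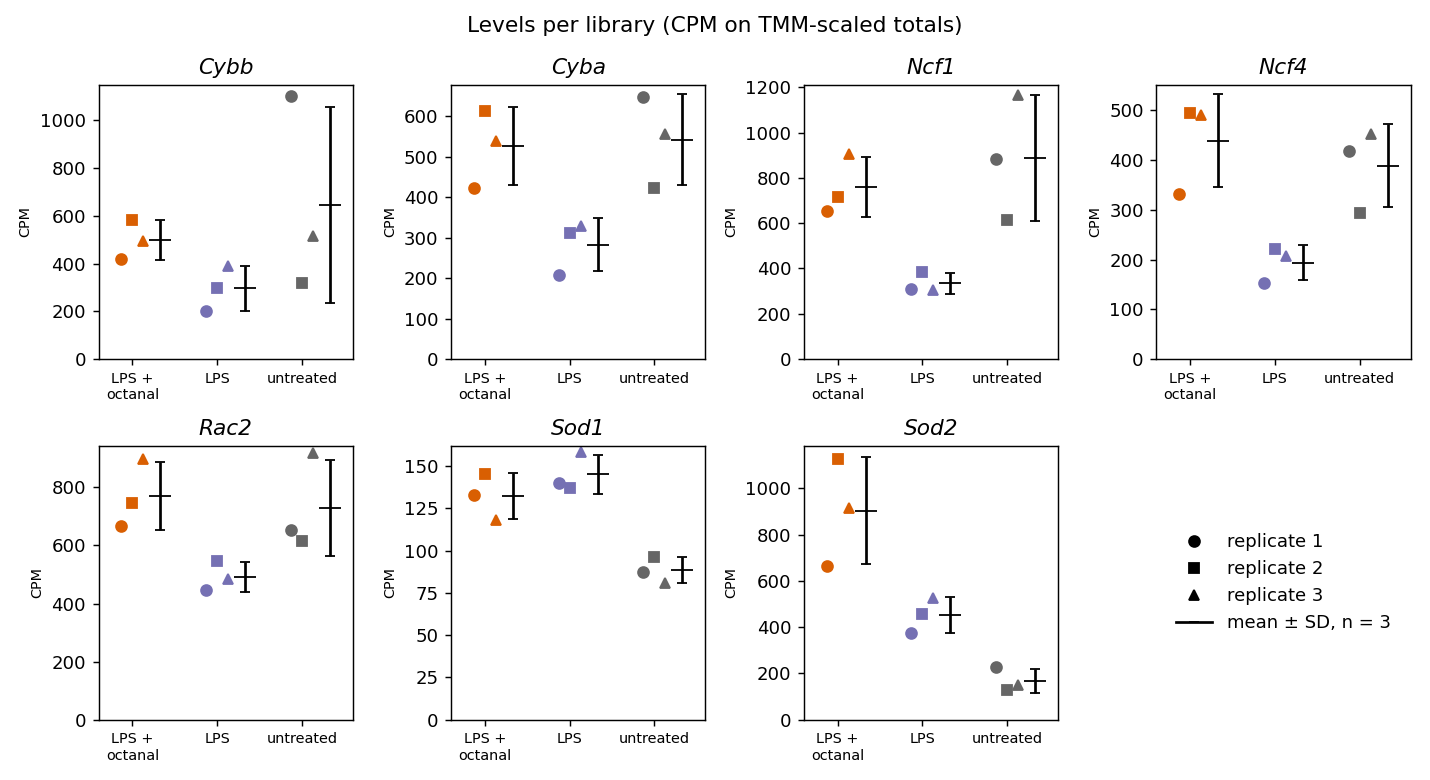
Levels of the 7 genes in CPM on TMM-scaled totals, per library (points, shaped by replicate) with mean ± SD (bars, n = 3) in cells with LPS and octanal, with LPS, and untreated. The 5 oxidase genes have their lowest means in the LPS group, Sod1 is lowest in untreated libraries (81.0 to 96.2 CPM), and Sod2 separates all 3 groups.

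LPS against untreated cells compares these genes with and without low-dose LPS. DMSO is named for the untreated samples only and no time is given for them. LPS, solvent and time in culture therefore cannot be told apart in this comparison. The oxidase genes Cyba, Ncf1, Ncf4 and Rac2 fell and both dismutase genes rose. Of the 7 genes, 6 were called, 4 lower and 2 higher, where 32.8% of all 15447 genes were called (15.2% higher, 17.6% lower). Both groups' libraries did not overlap for 6 of the 7, against 51.5% of all genes. The median log2 fold change of the 7 was -0.94, against 0.01 over all genes tested.

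The largest fall among the oxidase genes was that of Ncf1, which averaged 334 ± 45.7 CPM with LPS and 888 ± 277 CPM untreated (SD, n = 3 each), which is -1.41 as a log2 fold change (SE 0.24, edgeR adjusted p = 0.00405). Ncf4 fell by 1.00 on the log2 scale (SE 0.22, adjusted p = 0.0116), to 194 ± 35.7 CPM with LPS against 388.5 ± 83.6 CPM untreated. Cyba fell by 0.94 (SE 0.23, adjusted p = 0.0157), to 283 ± 65.7 CPM with LPS against 542 ± 113 CPM untreated. Both stood at about the same fraction of their untreated level, 0.499 for Ncf4 and 0.521 for Cyba. Rac2 fell least, by 0.57 (SE 0.19, adjusted p = 0.045). That call was lost when any library but untreated replicate 2 was left out, with adjusted p up to 0.152, and in 3 of the 10 other settings. Cybb was not called. It averaged 296 ± 93.9 CPM with LPS and 644 ± 409 CPM untreated, and its log2 fold change of -1.12 (SE 0.42, adjusted p = 0.0694) has a 95% interval of -2.08 to -0.17. Without untreated replicate 1, its highest library, the change was -0.53 (adjusted p = 0.255), and without untreated replicate 2 it was -1.47 and passed (adjusted p = 0.0144, in a fit that called 35.8% of genes); DESeq2 called it as well (adjusted p = 0.0186, with 40.2% of genes called). Without LPS replicate 1 the members called were Ncf1, Sod1 and Sod2 (3 of 7, against 15.1% of all genes), as Cyba (adjusted p = 0.0556) and Ncf4 (0.0516) then missed the threshold with Rac2.

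Sod2 rose 2.68-fold, to 452 ± 76.8 CPM with LPS against 169 ± 51.6 CPM untreated (log2 fold change 1.42, SE 0.26, adjusted p = 0.00548). Sod1 rose 1.64-fold, to 145 ± 11.4 CPM with LPS against 88.2 ± 7.65 CPM untreated (log2 fold change 0.72, SE 0.11, adjusted p = 0.00274). Its change is the smaller one but also the more even, since the log2 CPM of Sod1 varied between replicates with an SD of only 0.112 with LPS and 0.125 untreated. Both calls held in each of the 19 alternatives.

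Markers of several cell types moved in the same comparison. Of 14 neutrophil markers 13 fell (median log2 fold change -4.38), and of 13 monocyte and macrophage markers 8 fell (median -1.96), with summed levels of 2363 to 3955 CPM with LPS and 6637 to 15280 CPM untreated. All 6 T cell markers analysed rose, to 664 to 836 CPM in sum with LPS against 82.5 to 377 CPM untreated, and 3 of 6 NK cell markers rose, in sum 39.4 to 44.0 against 5.68 to 22.4 CPM. Of 8 B cell markers 1 rose, of 5 eosinophil markers 4 fell, and of 6 dendritic cell markers none was called. Over all genes tested 15.2% were called higher and 17.6% lower, and 1 of 8 is near the first share. Of the neutrophil and eosinophil genes, Elane had no counts in 1 LPS library and Epx none in the 3 LPS libraries. The 5 oxidase genes summed to 1318, 1764 and 1712 CPM with LPS against 3706, 2260 and 3608 CPM untreated, and untreated replicate 2 was the lowest of its group here and in the neutrophil (14000 CPM) and monocyte and macrophage (6637 CPM) sums. Within each group the monocyte and macrophage sum ranked the libraries in the same order as the oxidase sum. The neutrophil sum did not do so throughout. Untreated replicate 1 had the highest oxidase sum but replicate 3 the highest neutrophil sum. Among octanal libraries replicate 1 had the lowest oxidase sum but replicate 2 the lowest neutrophil sum. With 3 libraries a group, such orders cannot tell the lists apart. In untreated cells Lyz2 and Itgam had the highest means of the monocyte and macrophage list (6609 and 2135 CPM). Whether that list separates monocytes from neutrophils was not tested. The part of these markers in the changes of the 7 genes was not tested.

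**Figure D2:**
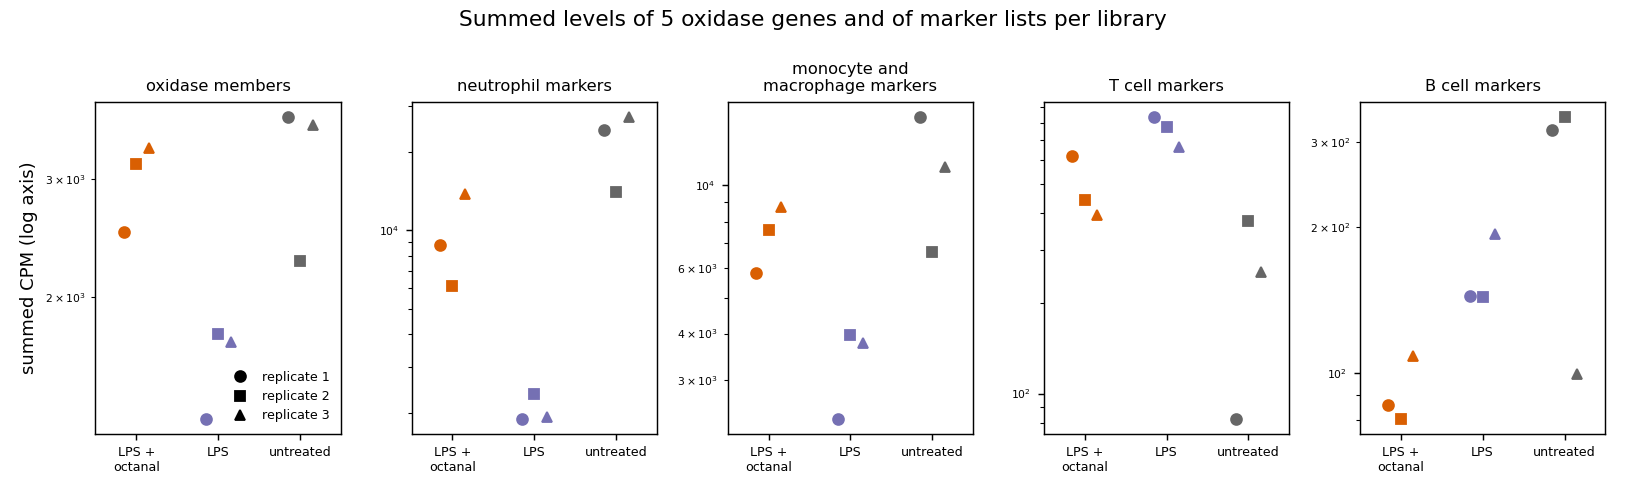
Summed CPM per library (log axis, points shaped by replicate) of the 5 oxidase genes and of the neutrophil, monocyte and macrophage, T cell and B cell marker lists, in cells with LPS and octanal, with LPS, and untreated. The oxidase sum and the neutrophil and monocyte and macrophage sums are lowest in the 3 LPS libraries, in which the T cell sum is highest (664 to 836 CPM).

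The next comparison, of cells given octanal after LPS with cells given LPS alone, asks what octanal adds to priming. By edgeR 0 of the 7 genes were called, as were 0 of all 15447 genes (0%). The lowest adjusted p of any gene was 0.0508, just above the threshold. Yet 6 of the 7, all but Sod1, had every octanal library above every LPS library, against 38.1% of all genes without overlap and 18.3% without overlap in the higher direction. With an unadjusted p under 0.05 there were 5 members, all with higher means (Cyba, Ncf1, Ncf4, Rac2 and Sod2), beside 3450 of all genes (22.3%; 13.6% higher). The median log2 fold change of the 7 was 0.89, against -0.05 over all genes tested.

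Ncf1 averaged 759 ± 132 CPM with octanal and 334 ± 45.7 CPM with LPS alone (log2 fold change 1.19, SE 0.24, edgeR adjusted p = 0.0578). Ncf4 averaged 439.5 ± 93.0 CPM with octanal and 194 ± 35.7 CPM with LPS (log2 fold change 1.18, SE 0.22, adjusted p = 0.0565). These cytosolic subunits came nearest to the threshold among the 7. For Cyba the means were 525 ± 96.4 CPM with octanal and 283 ± 65.7 CPM with LPS (log2 fold change 0.89, adjusted p = 0.0808), and for Rac2 they were 770 ± 117 CPM with octanal and 492 ± 50.6 CPM with LPS (0.65, adjusted p = 0.103). Cybb averaged 498 ± 82.8 CPM with octanal and 296 ± 93.9 CPM with LPS, with a log2 fold change of 0.75 whose 95% interval, -0.20 to 1.70, holds 0 (adjusted p = 0.317). Sod2 averaged 902 ± 231 CPM with octanal and 452 ± 76.8 CPM with LPS, a log2 fold change of 1.00 (SE 0.26, 95% interval 0.41 to 1.58, adjusted p = 0.0829). Sod1 averaged 132 ± 13.6 CPM with octanal and 145 ± 11.4 CPM with LPS, a log2 fold change of -0.14 with a 95% interval of -0.38 to 0.11 (adjusted p = 0.487).

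The number of calls here depended on the test. The DESeq2 Wald test called 5 of the 7 higher (Cyba, Ncf1, Ncf4, Rac2 and Sod2) among 1792 genes (11.6%), and edgeR on the 6 libraries of these groups alone called the same 5, among 1380 genes (9.27%). Ncf1 and Ncf4 alone passed with no filter on low counts (279 genes, 1.29%), with a filter at 10 CPM (323 genes, 3.44%) and without untreated replicate 2 (527 genes, 3.33%). Without octanal replicate 1 the calls were Ncf1, Ncf4 and Sod2, among 584 genes (3.68%). By limma-voom, and by limma-trend on log2(FPKM + 1), 0 members and 0 genes passed. In the same comparison the 14 neutrophil markers all had positive log2 fold changes (median 1.92, 0 called, 10 with an unadjusted p under 0.05), 10 of 13 monocyte and macrophage markers did (median 0.75, 0 called, 5 with an unadjusted p under 0.05), and all 6 T cell and all 8 B cell markers were negative (0 called); their summed ranges were 5815 to 8767 CPM with octanal and 2363 to 3955 CPM with LPS for monocyte and macrophage markers, 394 to 619 and 664 to 836 CPM for T cell markers, and 80.4 to 108 and 143 to 193 CPM for B cell markers. Beside these markers, 22.3% of all genes had an unadjusted p under 0.05 in that comparison. The oxidase sum was 2495, 3154 and 3327 CPM with octanal against 1318, 1764 and 1712 CPM with LPS, and the part of these markers in it was not tested.

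LPS with octanal against untreated cells spans the whole treatment, from which solvent and time in culture again cannot be told apart. Only the dismutases were called, 2 of 7 genes and both higher, where 8.67% of all genes were called (2.63% higher, 6.03% lower); the same 2 were the members without overlap of libraries, against 29.8% of all genes. Sod2 rose 5.35-fold, to 902 ± 231 CPM with octanal against 169 ± 51.6 CPM untreated (log2 fold change 2.42, SE 0.27, edgeR adjusted p = 0.00258). Of the genes tested 97.7% changed less than that in size, and the call held in each of the 19 alternatives. Sod1 rose 1.5-fold, to 132 ± 13.6 CPM with octanal against 88.2 ± 7.65 CPM untreated (log2 fold change 0.58, SE 0.11, adjusted p = 0.0181). It missed the threshold with the 6 libraries of these groups alone (adjusted p = 0.0542, 2.73% of genes called) and without octanal replicate 2 (adjusted p = 0.0716, 1.88% called).

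The oxidase genes were not called in this comparison, and their intervals bound the difference. The log2 fold change was -0.05 for Cyba (95% interval -0.56 to 0.47, adjusted p = 0.92) and 0.08 for Rac2 (-0.34 to 0.50, adjusted p = 0.815). It was 0.18 for Ncf4 (-0.32 to 0.68, adjusted p = 0.637) and -0.23 for Ncf1 (-0.76 to 0.31, adjusted p = 0.565). Cybb had the widest interval, -1.31 to 0.57 around -0.37 (adjusted p = 0.599). These intervals leave room for differences of either sign, so they do not show that the levels were equal. Leaving out 1 library turned the sign of Cybb, Cyba, Ncf1 or Rac2 but not that of Ncf4. The oxidase sum of 2495 to 3327 CPM with octanal lay within the untreated range of 2260 to 3706 CPM. Of the neutrophil markers 5 of 14 fell, and the neutrophil sum was below that of every untreated library (6109 to 13730 against 14000 to 27240 CPM). Of the 13 monocyte and macrophage markers 2 rose and 6 fell, and of the eosinophil and B cell markers 4 of 5 and 2 of 8 fell. Over all genes 2.63% were called higher and 6.03% lower. All 6 T cell and all 6 NK cell markers had positive log2 fold changes but 0 were called by edgeR (3 and 2 at an unadjusted p under 0.05), and the T cell sum was 394 to 619 CPM with octanal against 82.5 to 377 CPM untreated, without overlap. Of 6 dendritic cell markers 0 were called (2 at an unadjusted p under 0.05). Such p-values were common over all genes here. The T cell marker Cd3e, with an unadjusted edgeR p of 0.0498, had rank 4234 by p among the 15447 genes tested. The part of these markers in the rises of Sod1 and Sod2 was not tested. The comparisons share groups of libraries, so their values are set side by side and not counted as separate support.

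**Figure D3:**
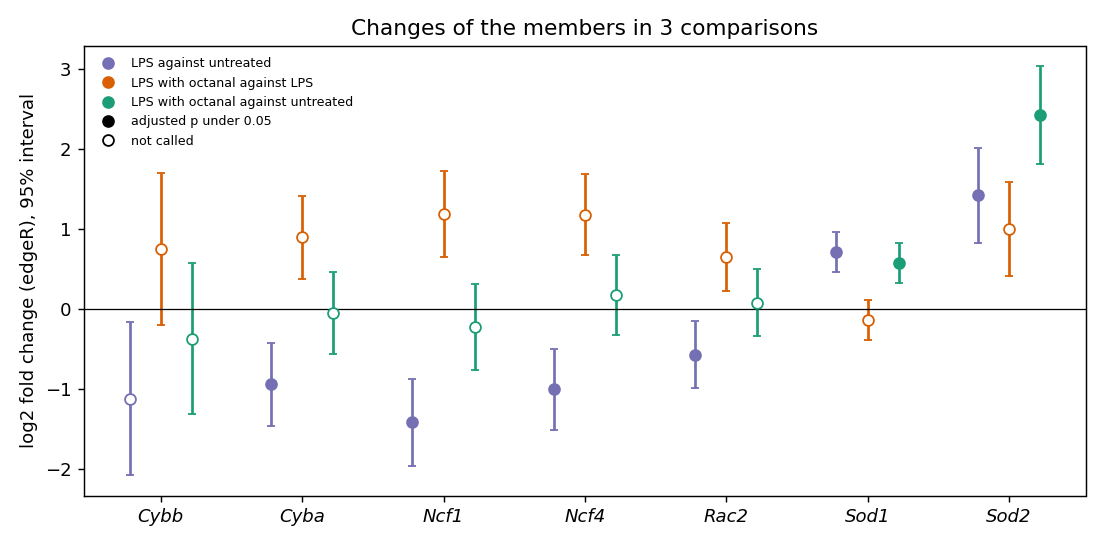
Log2 fold changes of the 7 genes in the 3 comparisons, from the edgeR fit of 9 libraries with 95% intervals; filled points passed an adjusted p under 0.05. The oxidase genes are negative in LPS against untreated and positive in LPS with octanal against LPS. Sod2 is positive in all 3 (1.42, 1.00 and 2.42). None of the 7 genes was called in LPS with octanal against LPS, and Cybb was called in no comparison.

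**Figure D4:**
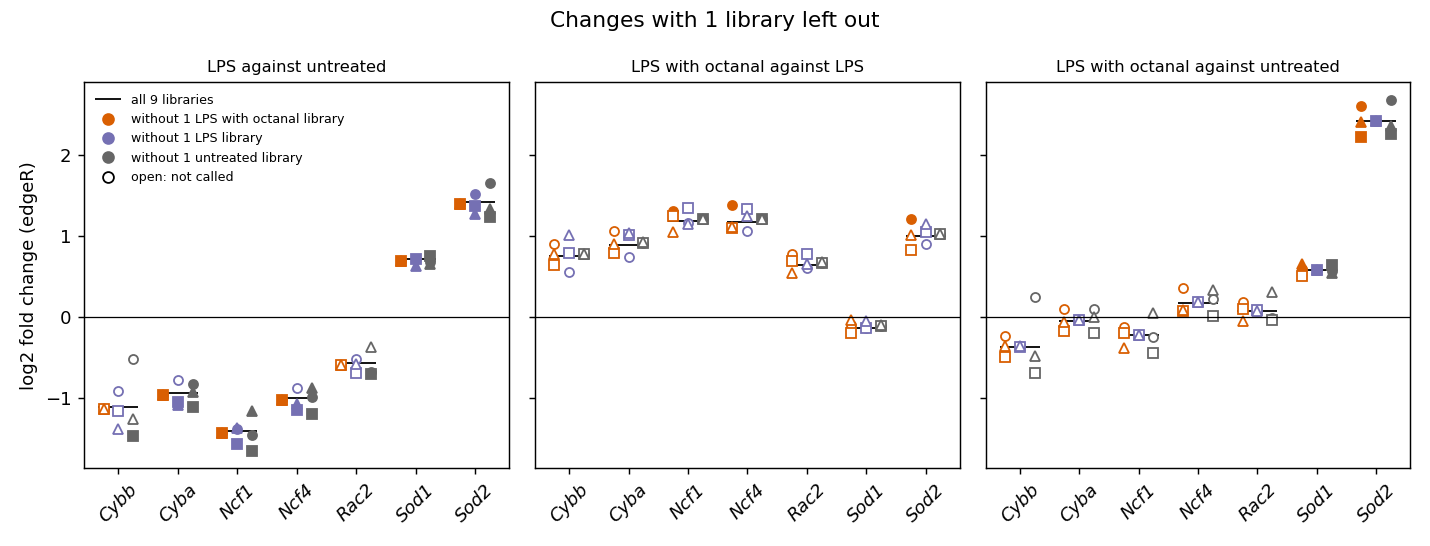
Log2 fold changes of the 7 genes with all 9 libraries (lines) and with 1 library left out (points, coloured by the group of that library; filled points passed an adjusted p under 0.05), in the 3 comparisons. The Sod1 and Sod2 values in LPS against untreated stay filled throughout, whereas Rac2 keeps its call there in 1 of 9 cases, and the Cybb value moves most, between -1.47 and -0.53.

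Per transcript length, as FPKM (fragments relative to gene length and library total, as scaled by the authors), Cyba was the most abundant of the 7 in every group, at 652 ± 110 FPKM with LPS and octanal, 375 ± 85.6 with LPS and 667 ± 126 untreated, and its libraries lay above those of every other member within each group. With octanal it was followed by Ncf4 (277), Ncf1 (254) and Rac2 (234), then Sod1 (189), Sod2 (143) and Cybb (96.1 FPKM), where only the steps below Cyba and below Rac2 were free of overlap between libraries. With LPS the order was Sod1 (222), Rac2 (161), Ncf4 (131), Ncf1 (119), Sod2 (77.0) and Cybb (61.1 FPKM), where Ncf4 and Ncf1 overlapped, as did Sod2 and Cybb. In untreated cells it was Ncf1 (292), Ncf4 (242), Rac2 (220), Sod1 (126), Cybb (123) and Sod2 (27.6 FPKM), where the steps below Rac2 and below Cybb were free of overlap. Sod2 was thus last of the 7 in untreated cells and ahead of Cybb by its mean in both stimulated groups.

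Ratios within a library compare these genes without reference to total counts. The FPKM ratio of Sod2 to Sod1 was 0.558, 0.859 and 0.863 with LPS and octanal, 0.295, 0.372 and 0.372 with LPS, and 0.296, 0.159 and 0.212 untreated, highest in the octanal libraries without overlap. In this ratio the LPS and untreated libraries overlapped (0.295 in LPS replicate 1, 0.296 in untreated replicate 1). The FPKM ratio of Sod2 to Cybb was 1.31, 1.58 and 1.53 with LPS and octanal, 1.52, 1.26 and 1.12 with LPS, and 0.174, 0.358 and 0.248 untreated, so both stimulated groups lay above untreated and overlapped each other. That of Cyba to Cybb was 6.51 to 7.03 with octanal, 5.45 to 6.70 with LPS and 3.79 to 8.58 untreated, and Ncf1 to Ncf4 was 0.764 to 1.05 with octanal, 0.784 to 1.06 with LPS and 1.10 to 1.36 untreated. The ratio of Rac2 to Rac1, the widely expressed Rac, was 2.63 to 2.81 with octanal, 2.11 to 2.29 with LPS and 1.81 to 3.00 untreated. These ratios are given as descriptions without a test.

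Of the 11 other oxidase and dismutase family genes described here, 4 could be tested, and edgeR called 0 of them in each comparison. At an unadjusted p under 0.05 there were 2 in LPS against untreated cells, where such p-values were common over all genes. Csf1r, with an unadjusted edgeR p of 0.0429, had rank 6683 by p among the 15447 genes tested in that comparison. Rac1 was not called. Its log2 fold change in LPS against untreated cells was -0.33 (adjusted p = 0.051). With octanal it was 0.24 relative to LPS (adjusted p = 0.254) and -0.10 relative to untreated cells (adjusted p = 0.619). Too low to be tested were 7 of the 11 (Nox1, Nox3, Nox4, Duox1, Duox2, Duoxa1 and Duoxa2).

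Among 13 genes that assemble or activate the oxidase or mature the dismutases, 5 fell and 1 rose in LPS against untreated (median log2 fold change -0.23, against 0.01 over all genes). In that comparison 17.6% of all genes were called lower and 15.2% higher. Those named by lowest p were Vav3, an exchange factor for Rac GTPases (-0.98, adjusted p = 0.00152), Pik3cg, the catalytic subunit of phosphoinositide 3-kinase gamma (-0.90, adjusted p = 0.0131), Prkcb, a protein kinase C that can phosphorylate p47phox (-0.78, adjusted p = 0.0147), and Hvcn1, the voltage-gated proton channel that balances the charge moved by the oxidase (-0.98, adjusted p = 0.0153). The gene that rose was Ccs, the copper chaperone of Sod1, with 25.03 ± 3.81 CPM with LPS against 16.2 ± 2.01 CPM untreated (0.63, adjusted p = 0.0263). With 1 library left out, the call of Vav3 held in 9 of 9 cases. The call of Prkcd (-0.58, adjusted p = 0.0234), which also fell, was lost in 4 of 9 cases (adjusted p up to 0.0938). Without LPS replicate 1 those of Pik3cg, Prkcb, Hvcn1 and Ccs were lost (adjusted p from 0.0555 to 0.104), and Pik3cg was also lost without LPS replicate 3 and Ccs without LPS replicate 2 or untreated replicate 1 or 3. By edgeR 0 of the 13 were called in LPS with octanal against LPS (9 positive, median 0.33). There 6 had an unadjusted p under 0.05, beside 22.3% of all genes. In LPS with octanal against untreated 0 were called, beside 8.67% of all genes (4 positive, median -0.06). There 4 had an unadjusted p under 0.05, as was common over all genes. Ccs, with an unadjusted edgeR p of 0.0477, had rank 4158 by p among the 15447 genes tested in that comparison.

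Of 13 enzymes that remove or use peroxide, the product of dismutases, 5 fell and 0 rose in LPS against untreated (median -0.31). Over all genes 17.6% were called lower and 15.2% higher. Gpx1, the cytosolic glutathione peroxidase, had 99.3 ± 15.3 CPM with LPS against 283 ± 81.4 CPM untreated (-1.51, adjusted p = 0.00188). Gpx4, which reduces lipid peroxides, changed by -0.62 (adjusted p = 0.00318), and Prdx4, the peroxiredoxin of the endoplasmic reticulum, by -0.93 (adjusted p = 0.0196). Mpo, the peroxidase of neutrophil granules and also one of the neutrophil markers, changed by -5.78 (adjusted p = 0.0192), with 0.823, 0.564 and 0.775 CPM with LPS against 114, 3.27 and 2.23 CPM untreated. Untreated replicate 1 sets the size of that change, which was -1.96 without it (adjusted p = 0.0158), and without any 1 LPS library the call was lost (adjusted p up to 0.068). The calls of Gpx1 and Gpx4 held with each of the 9 libraries left out, and that of Prdx4 was lost in 2 cases (adjusted p up to 0.0569). That of Gpx3 (-1.02, adjusted p = 0.0379) was lost in 7 of 9 cases (adjusted p up to 0.12). In LPS with octanal against LPS 0 were called by edgeR (10 positive, median 0.36). There 4 had an unadjusted p under 0.05, beside 22.3% of all genes. In LPS with octanal against untreated Prdx4 (-1.17, adjusted p = 0.0235), Gpx1 (-0.88, adjusted p = 0.0357) and Gpx4 (-0.39, adjusted p = 0.0456) fell, 3 of 13, and 0 rose. Of all genes 6.03% were called lower and 2.63% higher in that comparison. The calls of Gpx1 and Gpx4 there were each lost in 8 of 9 cases with 1 library left out (adjusted p up to 0.135 and 0.185), all but that without untreated replicate 2, and that of Prdx4 without octanal replicate 2 or 3 (adjusted p up to 0.0895).

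**Figure D5:**
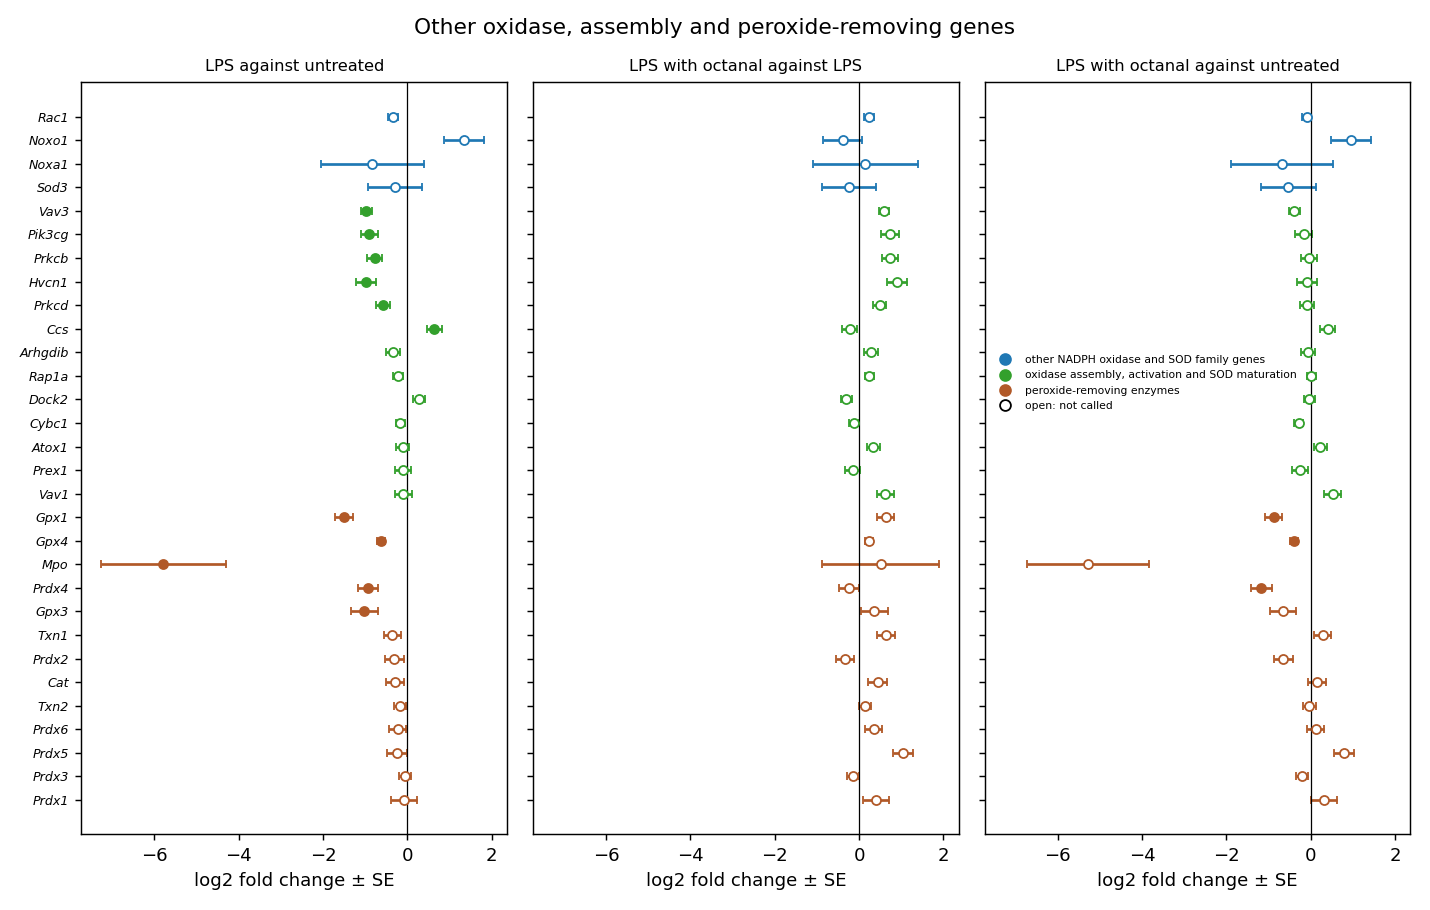
Log2 fold changes ± SE from the edgeR fit of the tested genes of 3 lists (other oxidase and dismutase family genes, assembly and maturation genes, and peroxide-removing enzymes) in the 3 comparisons; filled points passed an adjusted p under 0.05. Falls such as those of Gpx1 (-1.51) and Mpo (-5.78, or -1.96 without untreated replicate 1) and the rise of Ccs (0.63) stand in LPS against untreated, and no point is filled in LPS with octanal against LPS.

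Over the 9 libraries the pattern of a gene was compared with that of others by the root mean square (RMS) difference of its log2 CPM, centred per gene. Within the 7 genes Cyba and Ncf4 were the most alike (0.163), and Ncf1 and Sod2 the least (1.33). Each pair of oxidase genes differed by less than any pair of an oxidase gene with Sod2, and Sod1 was nearest to Rac2 (0.589). Among 12990 genes with a symbol, those most like Cybb, whose own values vary with an RMS of 0.653, were BC028528 (0.202), Ldlrad3 (0.205) and Acaa1b (0.228). Of these Ldlrad3 averaged 11.2 ± 3.09 CPM with LPS and octanal, 6.05 ± 0.929 with LPS and 12.6 ± 6.34 untreated. Those most like Sod2, with an own RMS of 1.04, were Il1f9 (0.216), an interleukin 1 family cytokine, Zc3h12c (0.232) and Lair1 (0.238), an inhibitory receptor of leukocytes. Il1f9 averaged 488 ± 109 CPM with LPS and octanal, 268 ± 53.7 with LPS and 107 ± 14.1 untreated. The genes compared are measured in the same 9 libraries and so share each library's depth and mix of cells, and these likenesses carry no test.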

How the data were processed

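RNA was extracted with TRIzol and libraries made with an mRNA kit for Illumina sequencing, per the labels' protocols. The authors deposited a table of whole-number counts per gene and library and no normalization, as the file headers and values show, and beside them FPKM values that the authors scaled by length and depth, per the file headers. Reads were placed on GRCm38, per the submitters' processing notes. Of aligner, counter and strand use nothing is given in the sources used here. The table held 26770 gene rows, and 10 lines without values were left out.

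The counts went into edgeR 4.0.16 under R 4.3.3, with TMM factors of 0.923 to 1.07, the filter filterByExpr and the legacy form of the quasi-likelihood test, in 1 fit of the 9 libraries and 3 group means. The filter kept 15447 genes, with at least 99.95% of each library's counts, and all 7 members passed it. Adjusted p-values are Benjamini-Hochberg values over these genes and, unless another tool is named, come from edgeR. CPM use TMM-scaled totals. Alternatives used DESeq2 1.42.0, limma 3.58.1 (voom, or log2(FPKM + 1) and log2(FPKM + 0.1)), other filters, 6 libraries alone, a replicate block and each library left out.

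The 7 genes, the lists and the markers were chosen with earlier results of these data known. The rule for naming took all 7 genes, Rac1, up to 4 called genes of lowest p per list and comparison, and the 3 genes nearest in pattern to Cybb and to Sod2. Monocyte genes and lists' remaining genes were named after their values were seen. A further gene of the lists is not reported here.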

Additional observations from a re-analysis of the deposited data

How the results depend on the processing

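Of the log2 fold changes of the 7 genes in 3 comparisons, recomputed under 19 alternatives each, 355 kept their direction and side of the threshold, 15 lost and 21 gained a call, and 8 turned sign; the cause was not tested. The sign changes were all in LPS with octanal against untreated, among values not called. With 1 library left out Cybb ranged from -0.69 to 0.25, positive without untreated replicate 1. Cyba ranged from -0.20 to 0.10, positive without octanal replicate 1 and, at 0.092 and 0.00056, without untreated replicates 1 and 3. Ncf1 ranged from -0.44 to 0.047, positive without untreated replicate 3. Rac2 ranged from -0.0525 to 0.31, negative without octanal replicate 3 and, at -0.0078 and -0.041, without untreated replicates 1 and 2. In LPS with octanal against LPS all genes called numbered 1792 by DESeq2, 279 with no filter, 323 with the 10 CPM filter, 1380 with 6 libraries alone and 90 with the default form of edgeR's test, chosen after seeing the data; members called numbered 5, 2, 2, 5 and 0 in that order. In LPS with octanal against untreated all genes called numbered 2810 by DESeq2 and 404 with 6 libraries alone, which called 1 member. With 1 library left out, 2387 to 5658 genes and 3 to 7 members were called in LPS against untreated, 0 to 584 genes and 0 to 3 members in LPS with octanal against LPS, and 298 to 2137 genes and 1 to 2 members in LPS with octanal against untreated. On log2(FPKM + 1) and log2(FPKM + 0.1), the share of higher calls in LPS against untreated was 58.9% and 58.2%, against 46.4%, with all genes shifted by a median of 0.106 and 0.114 log2; every sign of the 7 genes was kept there.

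Replicate numbers showed no clear pairing of the samples: same-numbered libraries' deviations correlated at -0.0848 to 0.163. The highest value was that of replicate 1 with octanal and with LPS. With 3 libraries a group such values cannot settle whether samples were paired. With a replicate block 4257, 0 and 923 genes and 6, 0 and 2 members were called in the 3 comparisons. With 3 libraries a group, precision was set by the spread between libraries, not by depth.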
